A study of Mus musculus with 43 samples.

Results

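Nrn1 encodes neuritin, and its row was the single gene examined here out of 10127 genes in a table of expression values from laser-captured hypothalamic nuclei. The row was chosen by its measured level, which was high in the paraventricular nucleus (PVN), so the difference between the PVN and the other nuclei is given as a description and carries no test. All mice were adult males of the strain labelled C57/BL6 that lacked Snord116 on the chromosome inherited from the father, the allele of the line B6(Cg)-Snord116tm1.1Uta/J. Snord116 lies in the Prader-Willi syndrome region, and no wild-type mouse was used here. They were fed ad libitum or fasted for 24 h. The arcuate nucleus (ARC), dorsomedial nucleus (DMH), PVN and ventromedial nucleus (VMH) were cut from brain sections, which gave 41 libraries from 12 mice. They comprised 4 fasted and 5 fed ARC libraries, 5 fasted and 6 fed DMH libraries, 5 fasted and 5 fed PVN libraries, and 6 fasted and 5 fed VMH libraries. Each library is named by its nucleus and mouse number, so PVN-100 and DMH-100 came from the same mouse, and a captured nucleus holds neurons, glia and vessels together.

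Neuritin is a small protein held at the neuronal surface by a glycosylphosphatidylinositol anchor. It was first found as a gene induced by neural activity and by neurotrophins such as BDNF, and it is known for promoting neurite growth and for stabilizing synapses. The PVN holds the neuroendocrine neurons that make vasopressin (Avp) and corticotropin-releasing hormone (Crh), beside preautonomic neurons involved in feeding and energy balance.

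In GRCm38, Nrn1 (ENSMUSG00000039114) lies on the minus strand at chr13:36725361-36735131, and GENCODE lists 5 transcripts. The coding sequence of the first-listed transcript has 429 bases in 3 exons, a GC content of 54.3% and 142 codons before the stop. Its first 200 bases, which identify the message that the row counts, run from the start codon to the end of exon 2. The capitals mark the 145 coding bases of exon 2 (chr13:36730107-36730251).
Nrn1: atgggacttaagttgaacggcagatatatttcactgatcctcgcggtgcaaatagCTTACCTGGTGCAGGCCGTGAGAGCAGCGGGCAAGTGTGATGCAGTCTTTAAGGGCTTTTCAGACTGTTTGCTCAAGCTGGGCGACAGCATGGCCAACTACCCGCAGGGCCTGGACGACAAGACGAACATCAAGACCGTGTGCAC
The lower-case bases are the 55 coding bases of exon 1, and exon 3 adds 229 bases with the stop codon. On the opposite strand, the annotated gene overlaps the end of Fars2 (chr13:36117412-36726280) and the antisense gene Gm30177 (chr13:36727258-36729259). Neither has a row in the table, and whether the counting used strand is not given in the sources used here, so reads of these genes and of Nrn1 may not have been told apart.

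The labels of the nuclei were checked against their marker genes. Levels are in CPM, the reads of a gene scaled to a library of 1000000 reads. Avp ranged from 395 to 1475 CPM in the 10 PVN libraries and did not exceed 10.04 CPM in the other 31. Npy, a peptide of ARC neurons, was at 195 CPM or more in every ARC library and at 33.4 CPM or less elsewhere. Fezf1, a factor of VMH neurons, was at 172 CPM or more in the VMH and at 21.9 CPM or less elsewhere. Hcrt and Pmch, peptides of the lateral hypothalamus, were present in the DMH at up to 268 and 631 CPM. Depth, estimated from the CPM value of 1 read, ranged from 1.94 to 8.23 M reads with a median of 4.10 M, where M is 1000000. Samples of mice 85 and 92 labelled PVN had no column of that name, while the table held ARC columns with the same numbers that matched no sample. Both were left out, and which nucleus those columns hold was not settled, so the PVN and ARC values here are without these 2 mice.

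Nrn1 was an abundant message in the PVN, intermediate in the DMH and barely detected in the ARC and VMH. In the PVN of fasted mice it stood at 90.2 CPM in PVN-100, 129 in PVN-101, 93.1 in PVN-305, 68.4 in PVN-311 and 81.7 in PVN-86. In the PVN of fed mice it stood at 68.7 CPM in PVN-111, 97.6 in PVN-125, 138 in PVN-127, 136 in PVN-308 and 118 in PVN-313. The lowest PVN library, at 68.4 CPM, lay 1.66-fold above the highest library of any other nucleus, a DMH library at 41.2 CPM, so the PVN did not overlap the other nuclei. Behind the PVN values stood 244 to 986 estimated reads per library, so counting error was small beside the spread between mice.

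The mean level of Nrn1 was 102 ± 26.5 CPM in the PVN (SD, n = 10), 14.9 ± 9.68 CPM in the DMH (SD, n = 11), 1.39 ± 1.50 CPM in the ARC (SD, n = 9) and 0.922 ± 1.08 CPM in the VMH (SD, n = 11). The PVN mean was 6.86-fold the DMH mean, 73.6-fold the ARC mean and 110.8-fold the VMH mean, and it made up 85.6% of the sum of the 4 means. On the log2(CPM + 0.5) scale the PVN exceeded the mean of the other 3 nuclei by 5.15 ± 0.30 (SE). Among genes with a row that averaged 5 CPM or more there, this difference was the third in rank. It came after Avp at 8.21 and Crh at 5.16 and before Ucn3, the urocortin 3 gene, at 4.88. A long run of Ensembl IDs has no row, so genes in it could not be ranked. With 2 or 0.1 added to CPM in place of 0.5, the difference of Nrn1 was 4.32 or 5.71. Of 10121 genes fitted, 3.03% were at least 1 higher on the log2 scale in the PVN with an adjusted p under 0.1. In absolute level Nrn1 was not among the leading messages of the nucleus, since 1290 of the genes with a row had a higher mean CPM in the PVN.

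**Figure D1:**
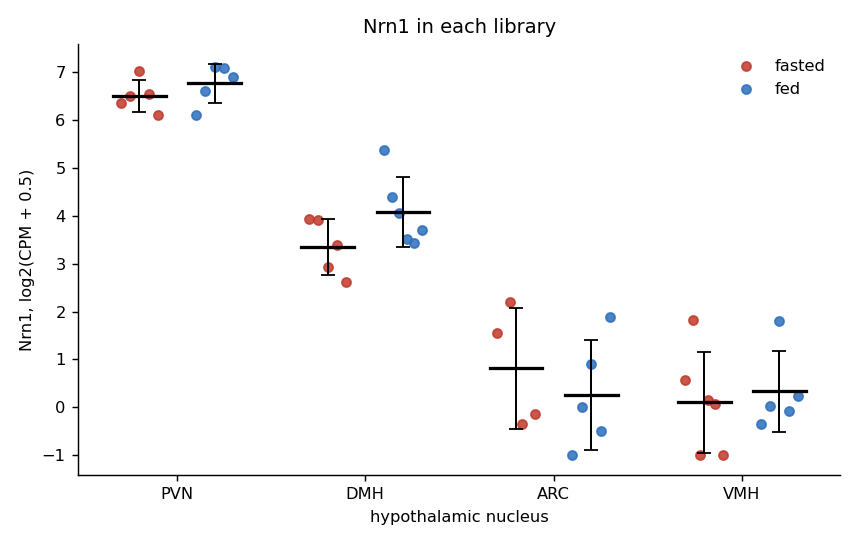
Nrn1 as log2(CPM + 0.5) in each of the 41 libraries, by nucleus and nutritional state. Points are libraries, thick bars are group means and whiskers are SDs. All 10 PVN libraries lie above every DMH library, and the ARC and VMH libraries lie at the bottom of the scale, where 3 libraries have no read.

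The ARC, DMH and VMH were compared with each other with limma across all genes. The choice of the gene set the PVN against these 3 nuclei together, so their levels entered it, although not the differences among them. The ARC was lower than the DMH, with a log2 difference of -3.14 ± 0.37 (SE) and a limma adjusted p of 4.92e-09. This direction was called for 10.1% of all genes in that comparison. The DMH was higher than the VMH, with a log2 difference of 3.50 ± 0.35 (SE) and a limma adjusted p of 2.11e-11, a direction called for 11.8% of genes. The 11 DMH libraries, from 5.61 to 41.2 CPM, did not overlap the ARC libraries, which reached 4.12 CPM, or the VMH libraries, which reached 3.06 CPM.

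The ARC and VMH were neighbours at the low end and could not be ordered. Their log2 difference was 0.36 ± 0.37 (SE) with a limma adjusted p of 0.534, in a comparison where 30.3% of genes were called. In the ARC, 5 of 9 libraries held no more than 3 reads of Nrn1, and in the VMH this was so for 7 of 11 libraries. The ARC libraries held at most 23 reads and the VMH libraries at most 12, so a level of Nrn1 in these nuclei was at the edge of what the depth could show.

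Within the DMH, DMH-92, from a fed mouse, stood apart at 41.2 CPM, while the 10 other DMH libraries ranged from 5.61 to 20.5 CPM. None of the 13 measured PVN neuron genes was above its highest level in the other DMH libraries. The share of all genes that were highest in DMH-92 was not counted, so this and the ranks below are only a description. Avp was at 1.45 CPM there, against a maximum of 3.77 CPM in the other DMH libraries, Ucn3 was at 0.290 CPM against a maximum of 1.86 CPM, and Crh was at 2.32 CPM against a maximum of 6.40 CPM. Reln, at 85.9 CPM, was the second-highest of the DMH libraries, and the 13 genes summed to 1815 CPM, below the 1923 to 2385 CPM of the others. Of the 8 genes most like Nrn1 over all libraries, described further on, Cxxc5 was highest in DMH-92, at 46.7 CPM against a maximum of 35.2 CPM. Bdnf, a neurotrophin that induces neuritin, was highest there too, at 21.5 CPM against a maximum of 16.6 CPM. The 8 activity-regulated genes with a row summed to 1064 CPM in DMH-92, inside the 1005 to 1333 CPM of the other DMH libraries. Gap43 alone made up 557 CPM of that sum. Egr1, at 219.0 CPM against a maximum of 218.5 CPM, and Junb, at 11.9 CPM against 10.9 CPM, were highest in DMH-92. None of the other members, Npas4 among them, was highest there. The 2 GABA neuron genes Gad1 and Slc32a1 summed to 332 CPM, inside the 309 to 411 CPM of the others. Gad1 on its own, at 173 CPM, was the lowest of the 11 DMH libraries. The library also differed in markers of other cell types. Its 6 oligodendrocyte genes summed to 1578 CPM against 455 to 1034 CPM in the other DMH libraries, its 6 microglia genes to 167 CPM against 83.6 to 156 CPM, its 6 vessel genes to 166 CPM against 81.5 to 154 CPM, and Npy was at 33.4 CPM against at most 6.12 CPM. The part of these differences in the Nrn1 value was not tested. Without mouse 92 the DMH stayed above the VMH by 3.38 and above the ARC, whose log2 difference from it was then -3.03 (limma adjusted p of 9.78e-11 and 1.83e-08).

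Markers of some other cell types also differed in level between nuclei. Of 8 vessel genes, 6 were measured and 5 were higher in the PVN by at least 1 on the log2 scale, against 3.03% of all genes, with a median of 1.27 over the 6, against -0.015 over all genes fitted. The summed vessel level ranged from 192 to 301 CPM in the PVN, against 81.5 to 166 CPM in the DMH. Both measured GABA neuron genes, Gad1 and Slc32a1, were lower in the PVN than in the mean of the other nuclei by at least 1, as were 3.38% of all genes. Their summed level was 21.0 to 49.8 CPM in the PVN against 309 to 411 CPM in the DMH. The VMH was lower still, with means of 11.3 CPM for Gad1 and 5.38 CPM for Slc32a1, against 20.7 and 15.5 CPM in the PVN. None of the 3 astrocyte genes, 6 oligodendrocyte genes or 6 microglia genes measured passed that fold in either direction. Whether the vessel or GABA neuron content took part in the Nrn1 level was not tested. In these bulk samples, fewer cells of a type and less RNA per cell cannot be told apart.

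Fasting was compared with feeding within each nucleus to ask whether Nrn1 responded to nutritional state. In the PVN the fasted mean was 92.6 ± 22.7 CPM (SD, n = 5) and the fed mean 112 ± 29.0 CPM (SD, n = 5), and the groups overlapped from 68.7 to 129 CPM. The log2 difference was -0.26 ± 0.18 (SE), with a 95% interval from -0.62 to 0.11 and a limma adjusted p of 0.672. In this comparison 0.367% of 9529 genes were called. The unadjusted p of Nrn1 in limma was 0.159, and 9.97% of genes fell under 0.05 before adjustment. The 3 batches given in the labels did not share a direction. Fasted minus fed was 0.25 on the log2 scale in batch 1, which held 1 library of each state, -0.10 in batch 2 and -0.66 in batch 3, both with 2 libraries of each state.

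In the DMH of fasted mice Nrn1 was at 14.5 CPM in DMH-100, 7.11 in DMH-101, 10.04 in DMH-305, 5.61 in DMH-311 and 14.7 in DMH-86. In the 6 fed DMH libraries it ranged from 10.3 to 41.2 CPM with a median of 14.4 CPM. The groups overlapped, although the 3 lowest libraries were all fasted and the 3 highest all fed. The log2 difference was -0.59 ± 0.34 (SE), with a 95% interval from -1.30 to 0.11, an unadjusted p of 0.0960 and a limma adjusted p of 0.812, where 0.0103% of genes were called and 6.62% fell under 0.05 before adjustment. Fasted minus fed was -0.96, -0.38 and -0.57 on the log2 scale in batches 1, 2 and 3. Without DMH-92 the log2 difference was -0.47 (limma adjusted p of 0.846).

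In the ARC, Nrn1 of fasted mice was at 4.12 CPM in ARC-100, 0.282 in ARC-305, 0.402 in ARC-311 and 2.43 in ARC-86, and in fed mice at 0 in ARC-111, 0.508 in ARC-125, 1.37 in ARC-127, 0.207 in ARC-308 and 3.18 in ARC-313. The highest and the lowest values of both groups interleaved. The log2 difference was 0.69 ± 0.77 (SE), with a 95% interval from -0.92 to 2.31 and a limma adjusted p of 0.839, where 0.176% of genes were called. Within batches it was 2.55, 1.75 and -0.94. In the VMH, Nrn1 ranged from 0 to 3.06 CPM over 6 fasted libraries, with a median of 0.581 CPM, and from 0.291 to 3.00 CPM over 5 fed libraries, with a median of 0.518 CPM. Nrn1 did not pass the minimum of 1 CPM there, so no fold or test is given.

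Whether the fasting difference of Nrn1 varied between the 4 nuclei was tested in 1 fit over all libraries. Nrn1 entered that fit through its PVN and DMH levels, and the ARC and VMH values in it rest on few or no reads, so the test says little about those nuclei. The F-test of all libraries in limma gave an unadjusted p of 0.383 and an adjusted p of 0.979. No gene of 10121 passed that limma test after adjustment, which is 0% called, and 522 genes, or 5.16%, fell under 0.05 before it.

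**Figure D2:**
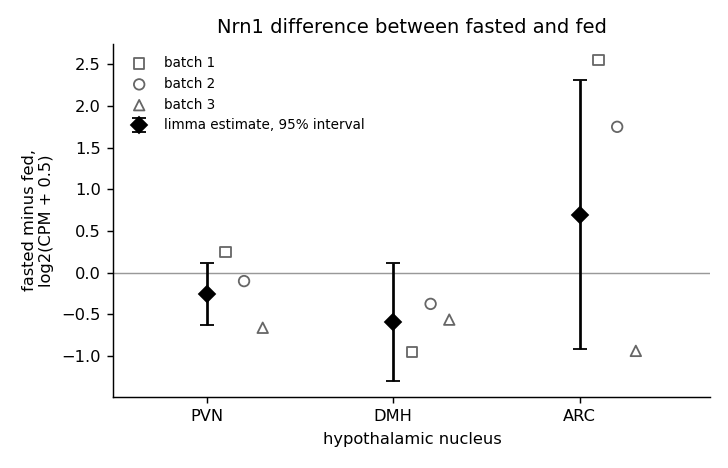
Difference in Nrn1 between fasted and fed mice, log2(CPM + 0.5), in the 3 nuclei where the gene was fitted. Diamonds are limma estimates with 95% intervals and open symbols are the differences within each labelled batch. All 3 intervals include 0, and the DMH is the nucleus where the 3 batches share a direction.

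Nrn1 was then set beside the PVN hormones Avp and Crh, library by library. Avp was at 1029 CPM in fasted PVN-100, 730 in PVN-101, 654 in PVN-305, 568 in PVN-311 and 1475 in PVN-86, and at 1249 CPM in fed PVN-111, 759 in PVN-125, 565 in PVN-127, 395 in PVN-308 and 580 in PVN-313. The 2 libraries with the most Avp, PVN-86 and PVN-111, had the third-lowest and the second-lowest Nrn1. The 2 libraries with the least Avp, PVN-308 and PVN-127, had the second-highest and the highest Nrn1. Nrn1 therefore stood at 5.50% to 34.4% of the Avp level, a wider range than that of Nrn1 itself.

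Across the 10 PVN libraries, Pearson's r between Nrn1 and Avp on the log2 scale was -0.605, with a permutation p of 0.0659 and 0.132 after Benjamini-Hochberg adjustment over the 2 hormones. Spearman's rho was -0.576, with a permutation p of 0.0895 and 0.179 adjusted. All p-values of these relations were two-sided, and those over fewer than 10 libraries were from exact enumeration. Of the 7496 genes averaging 5 CPM or more in the PVN, 4.71% had an r with Nrn1 as low as that of Avp or lower. Leaving out the 2 libraries farthest from the Avp median, which were PVN-86 and PVN-111, gave an r of -0.370 (n = 8, exact permutation p of 0.363), so the relation was weaker without them. These 2 libraries were the only ones of batch 1 in the PVN, and their CPM summed to 689010 and 657687 against 556883 to 585573 in the others.

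Within the other batches the sign was kept, at r = -0.867 in batch 2 and -0.593 in batch 3, each over 4 libraries and given as a description. After batch means were removed from all libraries, r was -0.628 with a permutation p of 0.106 adjusted, and after batch and nutritional state were removed it was -0.501. Leaving out PVN-311, which was low in both Nrn1 and Avp, gave the strongest relation, an r of -0.848 with an exact permutation p of 0.00831 adjusted over the 2 hormones. Pearson's r thus passed the threshold of 0.1 after adjustment without that 1 library and not with all 10. With CPM rescaled by size factors, Spearman's rho over all 10 was -0.648 with a permutation p of 0.0999 adjusted, just under the threshold, while Pearson's r was -0.617 with 0.118. Removing any other single library left r between -0.642 and -0.495.

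Crh was at 26.3 CPM in fasted PVN-100, 24.8 in PVN-101, 14.5 in PVN-305, 21.99 in PVN-311 and 126 in PVN-86, and at 39.4 CPM in fed PVN-111, 30.0 in PVN-125, 24.3 in PVN-127, 30.7 in PVN-308 and 30.9 in PVN-313. PVN-86 was far above the others. Pearson's r between Nrn1 and Crh was -0.234, with a permutation p of 0.569 adjusted. The sign was not stable. It was 0.363 after batch means were removed and 0.392 without batch 1 (adjusted permutation p of 0.302 and 0.363, the second exact), so a direction between Nrn1 and Crh could not be given.

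**Figure D3:**
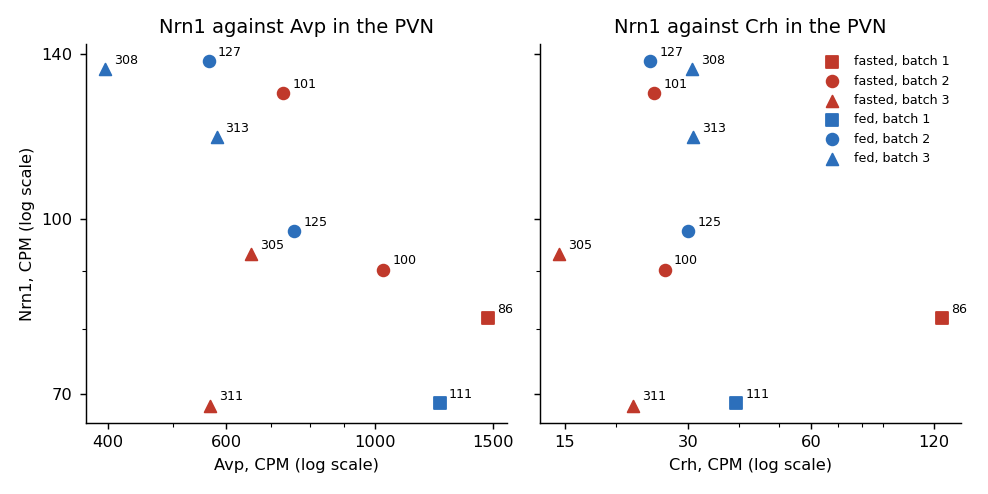
Nrn1 against Avp (left) and Crh (right) in the 10 PVN libraries, all in CPM on log axes. Numbers name the mouse, colour the nutritional state and symbol shape the labelled batch. The libraries with the most Avp, PVN-86 and PVN-111, are low in Nrn1, and PVN-311 lies low in both.

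The spread of Nrn1 between PVN libraries was somewhat above that of most genes of similar level. Its coefficient of variation was 26.0%, against a median of 21.1% over the 2086 genes with a mean of 50 to 200 CPM in the PVN, 73.4% of which varied less. The lowest and highest libraries differed 2.02-fold. By batch, the PVN mean was 75.2 CPM over the 2 libraries of batch 1, 114 CPM over 4 of batch 2 and 104 CPM over 4 of batch 3.

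The genes whose pattern was most like that of Nrn1 over all 41 libraries were found by Pearson's r on the log2 scale among 7496 genes, as a description. Reln, the secreted matrix protein reelin, came first with r = 0.935, then Crh with 0.877 and Cckar, the cholecystokinin A receptor, with 0.872. Pou3f2, a POU transcription factor of neuroendocrine neurons, followed with 0.861, Ubash3b, a tyrosine phosphatase, with 0.858, Grin3a, an NMDA receptor subunit, with 0.848, A730046J19Rik with 0.847 and Cxxc5, a zinc finger protein, with 0.833. Libraries of a nucleus share its level, so these values mostly restate the difference between nuclei.

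Reln had the same order of PVN over DMH, at 211 ± 34.9 CPM in the PVN (SD, n = 10) and 67.2 ± 13.6 CPM in the DMH (SD, n = 11), but it was also present in the ARC at 26.6 CPM and the VMH at 19.4 CPM. Pou3f2 came close to Nrn1 in level as well, with 105 ± 30.9 CPM in the PVN (SD, n = 10) and 14.9 CPM in the DMH, against 3.67 CPM in the ARC and 7.61 CPM in the VMH. Within the 10 PVN libraries the likeness did not carry over to every gene. The r with Nrn1 was 0.563 for Pou3f2, 0.273 for Reln, 0.149 for A730046J19Rik, -0.087 for Ubash3b, -0.152 for Grin3a, -0.173 for Cckar, -0.234 for Crh and -0.503 for Cxxc5. After batch means were removed, it was 0.228 for Pou3f2, -0.130 for Reln, -0.106 for A730046J19Rik, 0.363 for Crh and -0.207 for Cxxc5, and between -0.061 and -0.0053 for the other three, so the sign turned for Reln, A730046J19Rik and Crh.

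**Figure D4:**
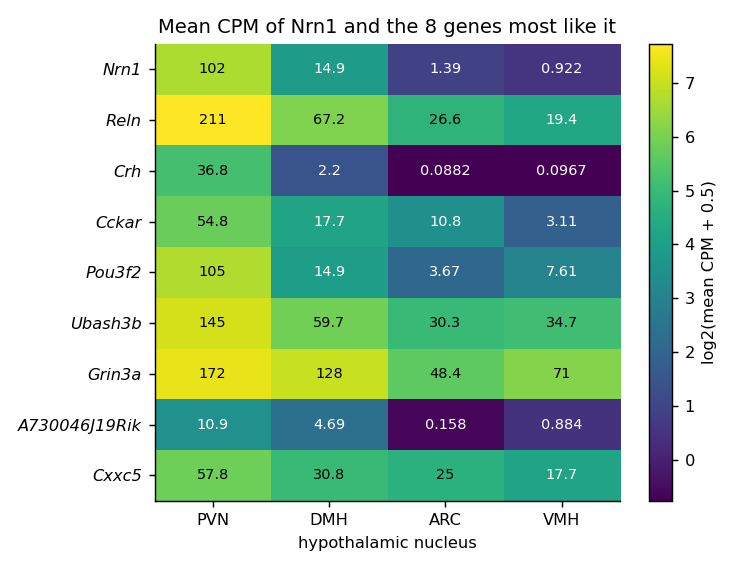
Mean CPM of Nrn1 and of the 8 genes with the highest Pearson's r to it over 41 libraries, by nucleus. Numbers are means in CPM and colour is log2(mean CPM + 0.5). Nrn1 falls from 102 CPM in the PVN to 0.922 CPM in the VMH, while Grin3a falls only from 172 to 71.0 CPM.

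Once the 8 group means and batch were removed, other genes led. Over 7638 genes the residual r with Nrn1 was highest for Tmtc2, a mannosyltransferase of the endoplasmic reticulum, at 0.670, then Naa30, an N-terminal acetyltransferase subunit, at 0.621, Tapt1 at 0.606, Upf2, a nonsense-mediated decay factor, at 0.579 and Triqk at 0.573. It was lowest for Psme3, a proteasome activator, at -0.624, Sec24d, a vesicle coat subunit, at -0.578 and Zfp280b at -0.562. None of these 8 genes had all its PVN libraries above those of the other nuclei. The share of all genes with that separation was not counted, so this does not set them apart. In many of the libraries behind the residual r values, those of the ARC and VMH, Nrn1 was at or under 3 reads.

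Of 16 genes listed for the neuritin pathway (Nrn1 with its paralogue, inducers, receptors, transcription factors and channels), 7 had a row. Bdnf, the neurotrophin that induces neuritin, was at 24.7 ± 11.5 CPM in the PVN (SD, n = 10), 10.5 CPM in the DMH, 3.90 CPM in the ARC and 33.4 CPM in the VMH. Its log2 difference between the PVN and the other nuclei was 1.38 ± 0.32 (SE), and its highest mean was in the VMH, where Nrn1 was near the floor of 3 reads. Ntrk2, the BDNF receptor TrkB, was abundant and near level, at 997 CPM in the PVN and from 891 to 1136 CPM elsewhere, with a log2 difference of 0.04 for the PVN. Gria2, an AMPA receptor subunit, was lower in the PVN, with a log2 difference of -0.57 ± 0.05 (SE), as was Ntrk3, the neurotrophin-3 receptor, at -0.42 ± 0.10 (SE). Crem, a CREB family factor, and Kcnd2, an A-type potassium channel, did not pass the limma threshold, at 0.43 and 0.23. None of the 6 other pathway genes passed the test for fasting in any nucleus, where the share of all genes called was 0.176% in the ARC, 0.0103% in the DMH, 0.367% in the PVN and 0.0208% in the VMH, so a count of 0 among 6 genes lies at the background. Their median log2 difference in the PVN was -0.015, against 0.006 over all genes. Across the 10 PVN libraries, Ntrk2 had an r of -0.798 with Nrn1, and of -0.733 after batch means were removed, a value singled out after it was seen and given as a description.

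Nrn1 belongs to the genes known to respond to neural activity, and 20 others of that kind were listed, 8 of them with a row. In the PVN against the other nuclei, the immediate early factors Egr1 and Junb were higher by 1.15 and 1.09 on the log2 scale. Nptx2, a synaptic pentraxin, was lower, with a log2 difference of -3.07 ± 0.28 (SE). A difference of at least 1 was called upward for 3.03% of all genes and downward for 3.38%. At smaller folds, Vgf and Rgs4, at 0.81 and 0.44, and Gap43, at -0.43, also passed the limma threshold, while Npas4 and Inhba did not. Of the 8, only Vgf, a neurotrophin-induced secretory protein, passed the test for fasting, and it was higher in fasted mice by 1.00 ± 0.17 (SE) in the PVN and by 0.91 ± 0.19 (SE) in the ARC (limma adjusted p of 0.0248 and 0.0867), where a rise was called for 0.304% and 0.104% of genes. That call was lost in the PVN without PVN-100, where the log2 difference was 1.01 (limma adjusted p of 0.151), and in the ARC without any of 7 of its 9 libraries, where it was 0.79 to 0.96 (limma adjusted p of up to 0.392), so the estimates stayed close to those over all libraries. None of the 8 passed in the DMH, where 0.0103% of all genes were called, or in the VMH, where 0.0208% were, and the median over the 8 in the PVN was 0.28. Of the 8 estimates there, 4 were above 0 and 4 below, and 4 had an unadjusted limma p under 0.05, against 9.97% of all genes. Besides Vgf these were Npas4, Rgs4 and Gap43. Npas4, an immediate early factor, had the largest estimate of the 8, at 1.49 ± 0.60 (SE), with a limma adjusted p of 0.418. Rgs4, a G protein signalling regulator, was at -0.52 ± 0.12 (SE) with a limma adjusted p of 0.108, and Gap43, a growth-cone protein, at -0.31 ± 0.10 (SE) with 0.277. Of 25 genes listed for PVN neurons, 13 had a row. Of these, 8 were higher in the PVN by at least 1, against 3.03% of all genes, and none passed the test for fasting there, against 0.367%. The genes were listed as PVN genes with earlier results of these data known, so the count of 8 is no test. Before adjustment, 5 of the 13 had a limma p under 0.05 for fasting in the PVN, against 9.97% of all genes. Of these, Avp and Penk had estimates above 0, and Pou3f2, Gpr101 and Brs3 below.

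The genes that overlap Nrn1 have no row, so the 3 nearest measured genes on each side were examined. Genes without a row, such as those in the missing run of Ensembl IDs, may lie closer. They were Lyrm4, Cdyl and Slc22a23 at 608, 851 and 2380 kb on the low-coordinate side, and F13a1, Rreb1 and Cage1 at 132, 1043 and 1271 kb on the other. All but Rreb1 had a log2 difference between the PVN and the other nuclei from -0.14 to 0.51 that did not pass the limma threshold, and F13a1, the nearest, averaged only 0.714 to 1.69 CPM in the 4 nuclei. Rreb1, a zinc finger factor, was lower in the PVN, with a log2 difference of -1.48 ± 0.18 (SE) and a limma adjusted p of 8.21e-09. A level lower by at least 1 was called for 3.38% of all genes. The share called at any fold was not counted, so the number of neighbours called is only a description.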

How the data were processed

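RNA of laser-captured nuclei was amplified (Ovation RNA-Seq V2), sequenced and, per the authors, aligned with TopHat to GRCm38. The authors' processing notes name CASAVA 1.7, TopHat2 2.0.11, Cufflinks 2.2.1, edgeR and limma. The counting program is not given in the sources used here. The authors left out outlier libraries and deposited CPM values (read counts per 1000000 reads) for 10127 genes. The table holds part of the genome, since its columns sum to 554896 to 689010 CPM. A long run of Ensembl IDs, that of Fars2 among them, has no row. Of 43 samples, 41 matched a column by name; 2 PVN samples (mice 85 and 92) were not analysed here, and the 2 ARC columns with the same mouse numbers, named for no sample in the labels, were left unused. Nrn1 was found by its Ensembl ID in GENCODE M21, which named 9891 IDs.

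Depth came from the CPM of 1 read. Low values were whole reads, within 0.1 read, for 97.0% to 98.1% of values, so count tests were not run. A level of 3 reads was taken as the floor, and counting error alone is covered by it. Genes that reached 1 CPM in a number of libraries equal to the size of the smaller group were fitted as log2(CPM + 0.5) with limma 3.58.1 (R 4.3.3), batch as a covariate, and Benjamini-Hochberg adjustment with a threshold of 0.1. A low gene's fold change is understated on this scale. Across nuclei 8 group means and batch were fitted, and mouse as a replicate block was the alternative. Relations across libraries used 100000 permutations, or enumeration for fewer than 10 libraries. The fits were tested on simulated data. Named genes were Nrn1, Avp, Crh, the listed genes, the 8 most like Nrn1, the 5 highest and 3 lowest by residual r, and 3 neighbours on each side. The members and lists were chosen with earlier results of these data known. Groups and numbers came from the sample titles, in which a number names the mouse, so libraries are separate mice within a nucleus.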

Additional observations from a re-analysis of the deposited data

Results flagged for a closer look

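In groups of 4 to 10 libraries, the highest and lowest libraries were compared with the gap to the nearest other library. Of 12 groups looked at, over Nrn1 in all nuclei and Avp and Crh in the PVN, 4 held a library farther out than this test allows, and 0.6 would be so by chance.

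Nrn1 was at 41.2 CPM in the fed DMH library DMH-92, against 10.3 to 20.5 CPM in the 5 other fed DMH libraries. Nrn1 was at 3.06 CPM in the fasted VMH library VMH-86, against 0 to 0.976 CPM in the 5 others, a value of 10 reads. Nrn1 was at 3.00 CPM in the fed VMH library VMH-127, against 0.291 to 0.676 CPM in the 4 others, a value of 12 reads. Crh was at 126 CPM in the fasted PVN library PVN-86, against 14.5 to 26.3 CPM in the 4 others. The same mouse had 10 reads of Nrn1 in the VMH, while its PVN library was the third-lowest in Nrn1.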

How the results depend on the processing

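Nrn1 kept its direction and its side of the threshold for fasting in the ARC, DMH and PVN under every alternative that gave a value. Left-out libraries gave 0.14 to 1.03 in the ARC, -0.76 to -0.47 in the DMH and -0.38 to -0.13 in the PVN (log2), and the lowest limma adjusted p over all PVN alternatives was 0.404. The ARC gave a value for 7 of 9 left-out libraries, since the filter removed Nrn1 in the rest, and the VMH comparison was not run because Nrn1 did not pass the filter. With mouse as a replicate block, the limma F-test of fasting between nuclei gave 0.466 before and 0.959 after adjustment, ARC against DMH -3.04, ARC against VMH 0.37, DMH against VMH 3.42 and PVN against the others 5.20, and no call changed.

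ARC against VMH turned to -0.073 in fed libraries only. The PVN difference was 4.32 with a pseudocount of 2 and 5.71 with 0.1. Nrn1 with Crh was 0.363 after removing batch, 0.400 after batch and state and 0.392 without batch 1, a setting chosen after seeing the data. Nrn1 with Avp ran from -0.848 to -0.495 with a library left out. Genes called for fasting were 17 in the ARC, 1 in the DMH, 35 in the PVN and 2 in the VMH. These became 5 in the ARC without the filter, and without batch 0, 0, 3 and 1. Leaving out libraries, added after seeing the data, gave 3 to 23, 1 to 2, 2 to 31 and 1 to 5, and 0 to 2 for the test between nuclei. The cause was not tested. Reads of Nrn1 limited only the ARC and VMH.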
